A study of Mus musculus with 12 samples.

Results

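The 89 genes described here are the Hox genes and other transcription factors known from embryonic patterning, measured in the ascending aorta of young mice. They were taken by gene symbol from the annotation of the array: the Hoxa, Hoxb, Hoxc and Hoxd clusters, and the Gata, Tbx, Hand, Nkx2, Isl1, Meox, Pitx, Prrx, Dlx, Msx, Six2 to Six6, Foxc and Foxf families. That rule uses no measured value. They are 89 of the 19938 genes with a probe set (the group of oligonucleotides that reads 1 transcript) annotated to a single symbol, and each gene is given by its brightest such probe set. Of the 89 genes 38 carry a Hox symbol, among them the antisense transcript Hoxd3os1, and 87 had a single usable probe set.

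All mice carried Myh11-CreERT2, a Cre recombinase made in smooth muscle cells and switched on by tamoxifen, and floxed Tgfbr2 (Tgfbr2f/f), which encodes the ligand-binding receptor of TGF-beta. The 12 arrays fall into 4 groups of 3: Fbn1C1039G/+ mice with tamoxifen (mutant knockout), Fbn1C1039G/+ mice with corn oil (mutant control), Fbn1 wild-type mice with tamoxifen (wild-type knockout) and Fbn1 wild-type mice with corn oil (wild-type control). Tamoxifen was given as 1 mg into the abdomen on 5 days from 4 weeks of age, and the aorta was taken at 6 weeks. Fbn1C1039G/+ mice carry 1 mutant copy of the fibrillin-1 gene and are used as a model of Marfan syndrome. Knockout and tamoxifen cannot be told apart in this design, and the receptor is targeted in smooth muscle cells while other cells of the aorta keep it. Nothing in the labels ties the arrays of a group to separate animals, so p-values measure only the spread between these samples, which may be technical.

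Patterning factors bind DNA through homeodomains, T-boxes, zinc fingers, basic helix-loop-helix or forkhead domains, and set the position and identity of cells in the embryo. Hox genes lie in 4 clusters and are read in an order along the body axis, and cells of adult vessels keep part of the code of the region they came from. The ascending aorta is built from neural crest and from second heart field cells, in which Hand, Gata, Tbx, Isl1 and Nkx2 factors act, while Prrx, Msx, Foxc and Foxf factors mark embryonic mesenchyme. TGF-beta signalling, which runs from the receptors to SMAD proteins, controls many mesenchymal regulators in the embryo.

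Values are log2 of the deposited array intensity, and differences are log2 differences of group means with the standard error of a linear model over all 12 arrays (limma), each from 3 arrays a group. A gene was tested if its mean lay at or above a log2 level of 7.25, the 25th percentile over annotated probe sets, and was called changed at an adjusted p under 0.05 over all 15158 genes tested. Of the 89 genes 71 were tested. The 18 others were too dim: Hoxa9, Hoxa10, Hoxa11, Hoxb5, Hoxc4, Hoxc5, Hoxc6, Hoxc8, Hoxc10, Hoxc11, Hoxd1, Hoxd8, Hoxd12, Hoxd13, Foxf2, Gata1, Tbx19 and Tbx22. Just under the limit lay Hoxc8 at 7.12, Tbx19 at 7.19 and Foxf2 at 7.21, and just over it Hoxc12 at 7.38, Hoxb6 at 7.42 and Hoxd3os1 at 7.46.

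The arrays were much alike, with median intensities of 301 to 317 on 11 arrays and 334 on mutant knockout 3, and correlations of log2 values of 0.995 to 0.997 within groups and 0.991 to 0.996 across groups. All 12 smooth muscle markers listed were above the limit, with Myh11 (smooth muscle myosin heavy chain) between 13.97 and 14.15 and Acta2 (smooth muscle actin) between 14.53 and 14.60 on the 12 arrays. Of these 12, 2 rose and 3 fell with the knockout in the mutant, and 1 rose and 4 fell in the wild-type. That is a share of 41.7% in each, where 13.3% and 18.6% of all genes tested were called. Myh11 was at 13.97 to 14.04 on wild-type knockout arrays and at 14.10 to 14.15 on wild-type control arrays, with overlap in the mutant. Tgfbr2 itself was at 12.03 ± 0.05 (SD, n = 3) in mutant knockouts and 11.99 ± 0.04 in mutant controls (two-sided exact permutation test, p = 0.3). In the wild-type it was at 11.87 ± 0.08 (SD, n = 3) in knockouts and 11.95 ± 0.01 in controls (the same exact test, p = 0.2), and 0.1 is the smallest p that 3 arrays against 3 can give. The probe set thus measured no clear loss of Tgfbr2, the position of its probes was not analysed here, and "knockout" is the name the labels give. For replicates 2 and 3 of the knockouts in each genotype, the free-text description names Tgfbr3 or Tgfbr4, while the title, the source and the stated Tgfbr2 status of the same samples name Tgfbr2, and the groups follow the titles.

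In the Fbn1 mutant, 11 of the 71 genes were called between knockout and control, 9 higher and 2 lower, which is 15.5% where 13.3% of all genes tested were called, 7.67% higher and 5.68% lower. In the Fbn1 wild-type, 7 were called, 3 higher and 4 lower, which is 9.86% against 18.6% of all genes, 9.08% higher and 9.51% lower. For the mean of both genotypes 20 were called, 15 higher and 5 lower, which is 28.2% against 28.7% of all genes, 15.0% higher and 13.7% lower. The share called thus lay near that of all genes in the mutant and for the mean, and below it in the wild-type. Their median difference was 0.12 in the mutant, where that of all genes was 0.03, and 0.02 in the wild-type, where that of all genes was -0.01. The knockout arrays lay wholly above or wholly below the control arrays for 31 of the 71 genes in the mutant, where 35.8% of all genes did so, and for 27 in the wild-type, where 35.6% did. In both genotypes at once and in the same direction they did so for 14 of the 71 genes, where 2190 of all 15158 genes (14.4%) did. Meox1 and Prrx2 rose and Tbx15 fell in both genotypes, and none was called in opposite directions.

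**Figure D1:**
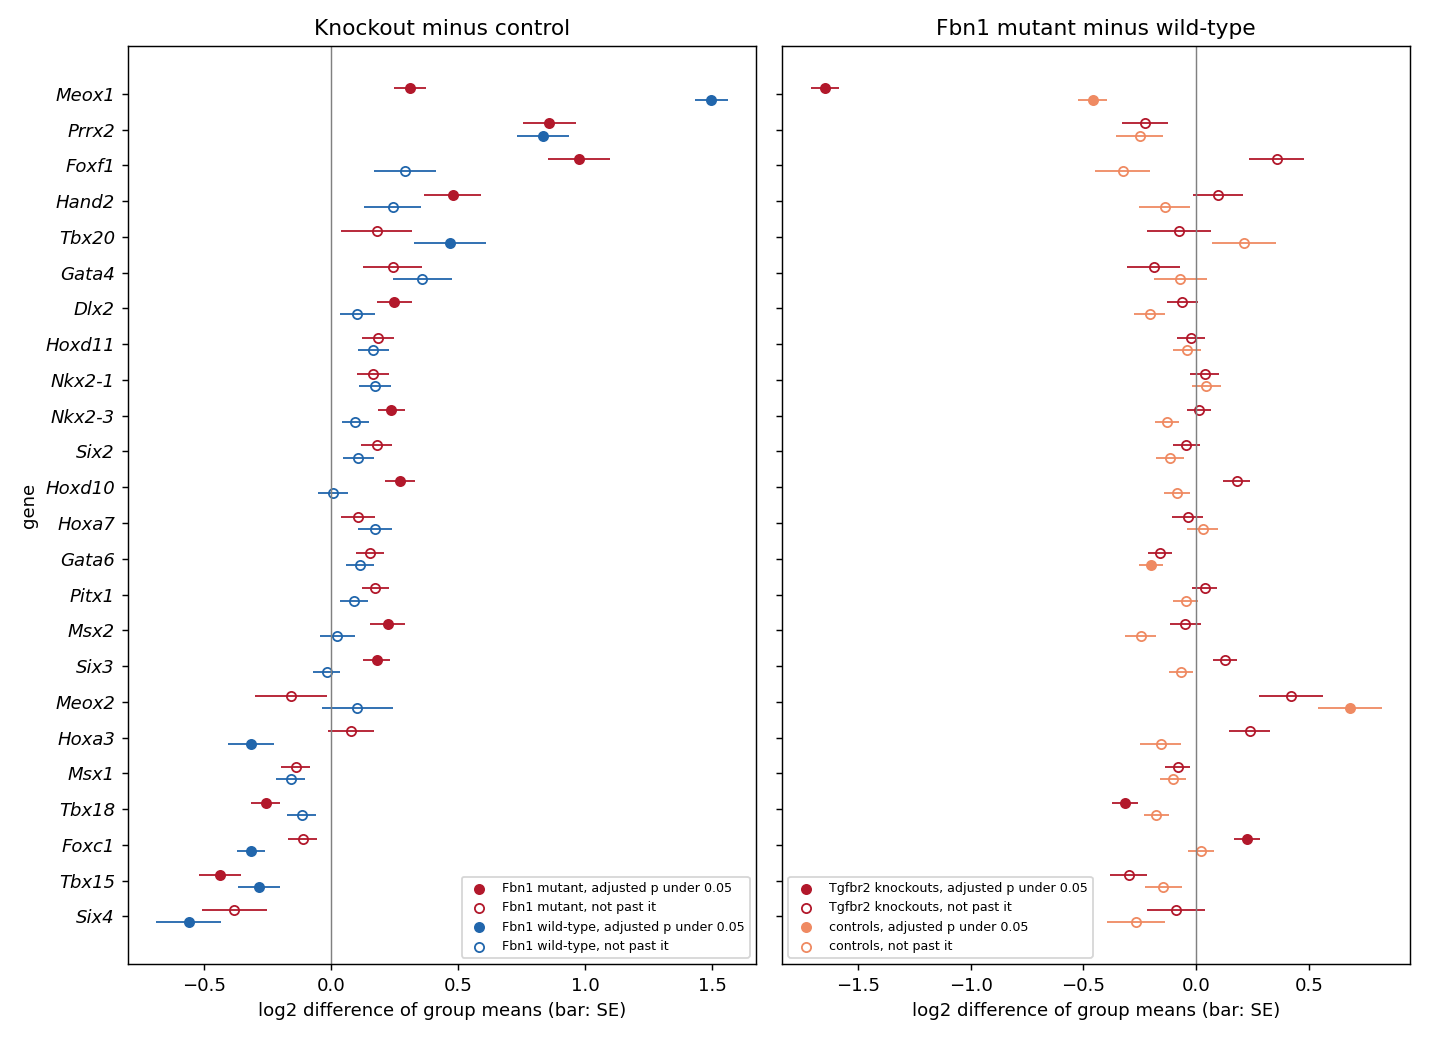
Log2 differences of group means with their standard error (x axis) for the 24 genes called in at least 1 comparison (rows), for knockout minus control (left panel) and Fbn1 mutant minus wild-type (right panel). Filled points are past the threshold. With the knockout Meox1 stands at 0.31 in the mutant and at 1.496 in the wild-type, while Prrx2 stands at 0.86 in the mutant and at 0.83 in the wild-type.

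Meox1 and Meox2 are homeobox factors of the somites and of mesoderm, and Meox2 has also been described in vascular smooth muscle. Meox1 had log2 levels of 8.15, 8.23 and 8.19 on the mutant knockout arrays, against 7.83, 7.93 and 7.88 on the mutant control arrays, and of 9.88, 9.83 and 9.79 on the wild-type knockout arrays, against 8.18, 8.44 and 8.38 on the wild-type control arrays. The 3 wild-type knockout arrays lay above the 9 others, the mutant knockouts lay above the mutant controls, and the mutant knockouts overlapped with the wild-type controls. Meox1 rose by 0.31 ± 0.06 with the knockout in the mutant, a 1.24-fold increase (adjusted p = 0.00972). In the wild-type it rose by 1.50 ± 0.06, a 2.82-fold increase (adjusted p = 1.53e-07), which was the smallest p of the 15158 genes. The knockout effect in the mutant minus that in the wild-type was -1.19 ± 0.09 (adjusted p = 0.000164), also the smallest p of all genes tested and the single patterning gene called of 71, where 1.47% of all genes were called, 0.409% higher and 1.06% lower.

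Between Fbn1 genotypes Meox1 was lower in the mutant, 3.13-fold among knockouts (log2 difference -1.65 ± 0.06, adjusted p = 4.72e-08). Among controls the difference was -0.46 ± 0.06 (adjusted p = 0.00209). Over the settings tried, the difference of the knockout effects ran between -1.24 and -1.11. It was not tested when the limit was set at the median of the probe sets, since Meox1 was then too dim. Its rise in the mutant was not called when the cardiac or the immediate early marker mean was a covariate, with differences of 0.18 and 0.31 (adjusted p = 0.535 and 0.088), and both lists are described with the markers of other cells.

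Meox2 had log2 levels of 9.61, 9.50 and 9.45 on the mutant knockout arrays, against 9.50, 9.93 and 9.61 on the mutant control arrays, and of 9.03, 9.07 and 9.19 on the wild-type knockout arrays, against 8.85, 8.76 and 9.38 on the wild-type control arrays. The mutant arrays lay above the wild-type arrays both among knockouts and among controls, while knockouts and controls overlapped within each genotype. The Fbn1 mutant controls were above the wild-type controls by 0.68 ± 0.14, a 1.6-fold difference (adjusted p = 0.0155). Among knockouts the difference was 0.42 ± 0.14 and missed the threshold (adjusted p = 0.108). Without wild-type control 1, wild-type control 2 or mutant control 2 the difference among controls was 0.56 to 0.61, with an adjusted p of 0.0511 to 0.0730. Meox2 was thus higher and Meox1 lower in the mutant controls.

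**Figure D2:**
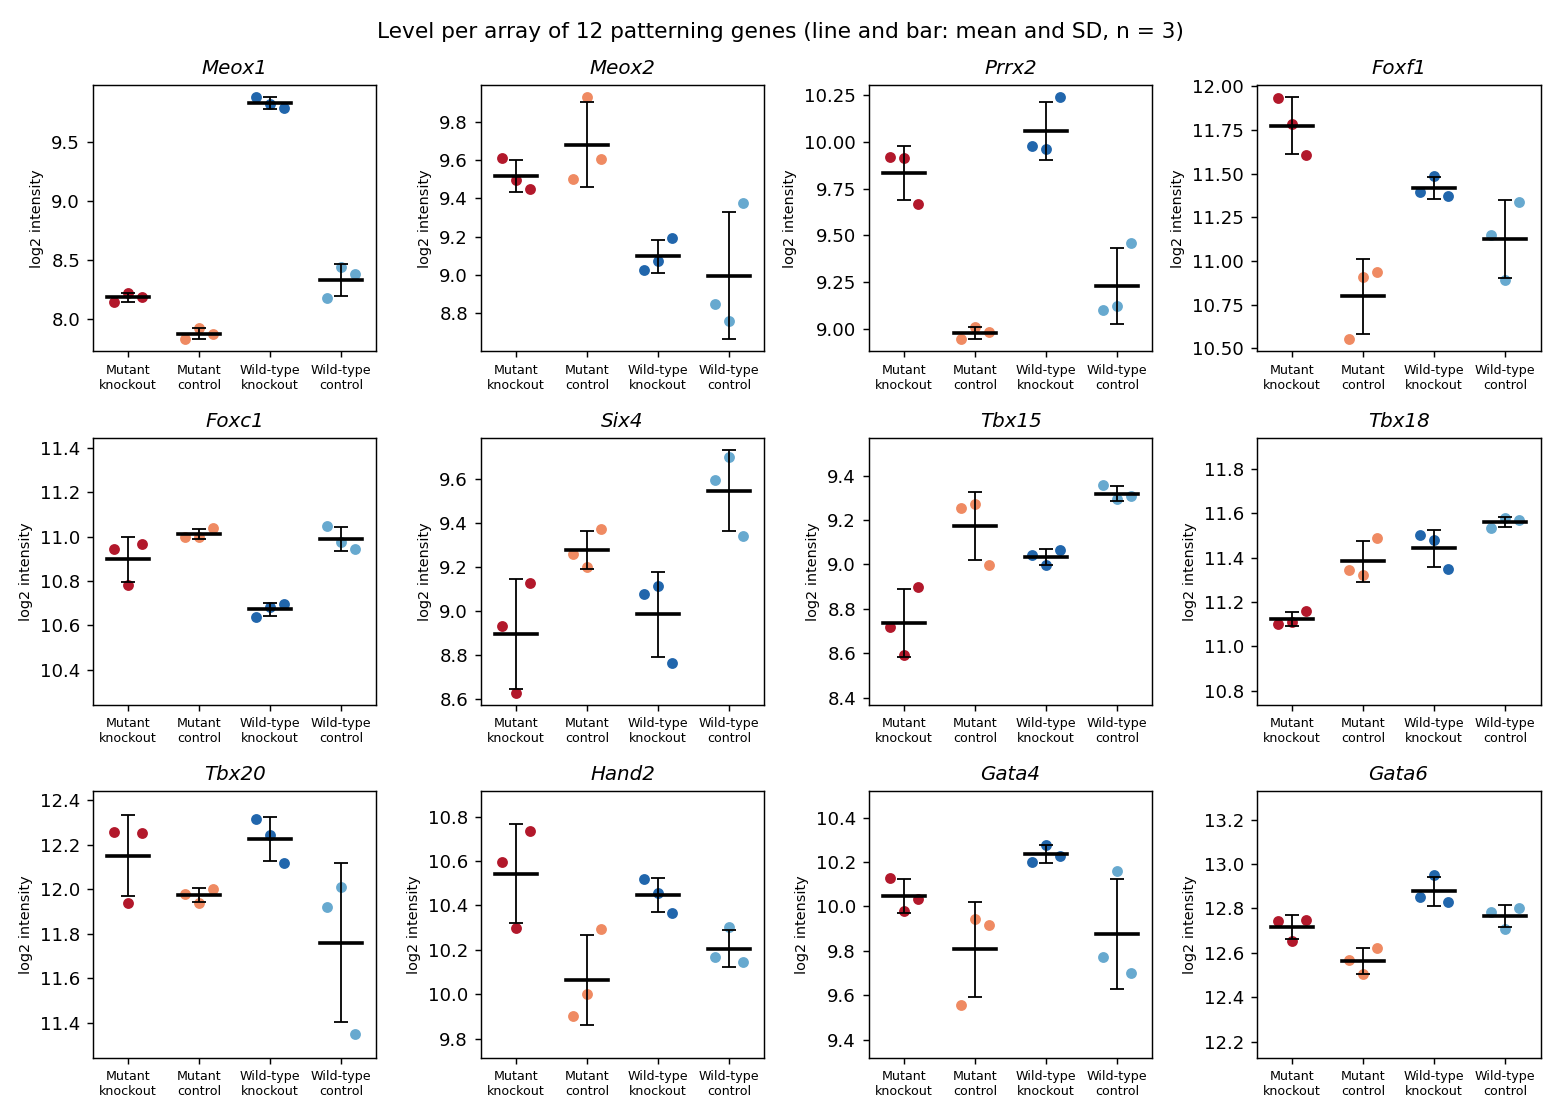
Log2 intensity (y axis) of 12 patterning genes on each array, by group (x axis), with the mean and SD of 3 arrays as a line and a bar. The 3 wild-type knockout arrays of Meox1, at 9.79 to 9.88, stand above all others, and Prrx2 is higher in the knockouts of both genotypes.

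Of the 10 genes of the Prrx, Msx and Dlx families, homeobox factors of the mesenchyme of limb and face, 3 were called in the mutant, 1 in the wild-type and 3 as the mean of both genotypes, and Prrx2 changed most. These are shares of 30%, 10% and 30%, where 13.3%, 18.6% and 28.7% of all genes were called. Prrx2 had log2 levels of 9.92, 9.92 and 9.67 on the mutant knockout arrays, against 8.94, 9.01 and 8.98 on the mutant control arrays, and of 9.98, 9.96 and 10.24 on the wild-type knockout arrays, against 9.10, 9.12 and 9.46 on the wild-type control arrays. Each knockout array was above each control array of its genotype. Prrx2, a paired-related homeobox factor of embryonic and wound mesenchyme, rose by 0.86 ± 0.10 in the mutant (adjusted p = 0.000348) and by 0.83 ± 0.10 in the wild-type (adjusted p = 0.000192), or 1.81-fold and 1.78-fold. The effects in the mutant and the wild-type differed by 0.02 ± 0.15, with a 95% interval of -0.29 to 0.34 (adjusted p = 0.952). Its close relative Prrx1 was not called, and differed most between Fbn1 mutant and wild-type knockouts, by 0.20 ± 0.06 (adjusted p = 0.0761).

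The promoters of Prrx2, Hand2 and Tbx18 are shown because these genes are among the called ones with the smaller p-values that the RefSeq promoter table (GRCm38.p6) lists, 2 higher and 1 lower with the knockout. The table matched 57 of the 89 genes. Each promoter runs from 250 bases before to 50 after the start of the gene, on the gene's strand, and capitals mark matches on either strand to the SMAD box CAGAC, the GATA site AGATAA, the homeodomain core TAATTA and the E-box CANNTG, which basic helix-loop-helix factors bind.
Prrx2, chr2:30845117-30845416, plus strand: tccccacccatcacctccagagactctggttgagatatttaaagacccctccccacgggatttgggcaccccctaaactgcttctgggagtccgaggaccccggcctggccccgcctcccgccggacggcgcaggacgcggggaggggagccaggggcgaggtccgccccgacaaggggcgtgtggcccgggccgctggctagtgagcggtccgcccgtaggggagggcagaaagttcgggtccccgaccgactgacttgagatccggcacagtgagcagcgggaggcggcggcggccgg
Hand2, chr8:57320733-57321032, plus strand: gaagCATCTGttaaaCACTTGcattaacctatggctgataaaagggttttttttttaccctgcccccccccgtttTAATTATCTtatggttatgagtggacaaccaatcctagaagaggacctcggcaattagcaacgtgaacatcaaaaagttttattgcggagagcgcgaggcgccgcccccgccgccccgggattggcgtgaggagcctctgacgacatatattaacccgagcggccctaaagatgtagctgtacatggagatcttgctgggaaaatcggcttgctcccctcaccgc
Tbx18, chr9:87731211-87731510, minus strand: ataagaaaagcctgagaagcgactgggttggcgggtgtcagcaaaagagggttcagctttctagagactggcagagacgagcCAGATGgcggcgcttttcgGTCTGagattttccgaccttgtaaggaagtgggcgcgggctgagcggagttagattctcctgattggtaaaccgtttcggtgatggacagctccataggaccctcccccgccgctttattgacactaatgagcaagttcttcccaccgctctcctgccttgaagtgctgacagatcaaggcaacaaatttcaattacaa
The Prrx2 promoter, at 70.3% G and C, held none of these letters. That of Hand2, at 50.3%, held E-boxes from bases 5 and 16 and a homeodomain core from base 76 that overlaps a GATA site from base 79, counted from the 5′ end. That of Tbx18, at 51.7%, held an E-box from base 83 and a SMAD box from base 102. Of all 32851 promoters listed, 49.6% held a SMAD box, 11.2% a GATA site, 5.29% a homeodomain core and 72.3% an E-box, and of the 64 promoters of the patterning genes 42.2%, 9.38%, 10.9% and 67.2% did. These matches describe letters and no binding.

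The other called genes of the mesenchymal homeobox families moved by small amounts. Dlx2 had log2 levels of 7.79, 7.91 and 7.94 on the mutant knockout arrays, against 7.71, 7.62 and 7.57 on the mutant control arrays, and of 7.98, 8.05 and 7.80 on the wild-type knockout arrays, against 7.86, 7.82 and 7.84 on the wild-type control arrays. Dlx2, a homeobox factor of the branchial arches, rose by 0.25 ± 0.07 in the mutant (adjusted p = 0.032), where the groups did not overlap, and its difference in the wild-type was 0.10 ± 0.07 (adjusted p = 0.337). The call in the mutant was lost without any one of mutant controls 2 and 3 and mutant knockouts 2 and 3 (adjusted p = 0.0821 to 0.0963). Msx1 had log2 levels of 9.30, 9.34 and 9.42 on the mutant knockout arrays, against 9.52, 9.41 and 9.55 on the mutant control arrays, and of 9.46, 9.49 and 9.35 on the wild-type knockout arrays, against 9.59, 9.56 and 9.64 on the wild-type control arrays. Knockouts lay below controls in the wild-type and overlapped with them in the mutant. Msx1, a target of BMP signalling in the embryo, fell by 0.15 ± 0.04 as the mean of both genotypes (adjusted p = 0.0148) and was called in neither alone. Msx2, its paralogue, averaged 7.82 ± 0.11 in mutant knockouts and 7.60 ± 0.12 in mutant controls (SD, n = 3 each), a difference of 0.22 ± 0.07 at the edge of the threshold (adjusted p = 0.049), which was lost without any one of 11 of the 12 arrays (adjusted p = 0.0549 to 0.140). Dlx5, not called, differed most between mutant and wild-type controls, by -0.33 ± 0.11 (adjusted p = 0.097).

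Among the 3 tested forkhead factors, Foxf1 rose and Foxc1 fell. Foxf1 had log2 levels of 11.93, 11.78 and 11.61 on the mutant knockout arrays, against 10.55, 10.91 and 10.94 on the mutant control arrays, and of 11.39, 11.49 and 11.37 on the wild-type knockout arrays, against 11.15, 10.89 and 11.34 on the wild-type control arrays. The mutant knockouts were the highest group and the mutant controls the lowest, and knockouts and controls did not overlap in either genotype. Foxf1, a factor of lateral plate mesenchyme needed for the vessels of lung and gut, rose by 0.97 ± 0.12 in the mutant, a 1.97-fold increase (adjusted p = 0.000404). In the wild-type its difference was 0.29 ± 0.12 (adjusted p = 0.119). The difference between these effects was 0.68 ± 0.17 and missed the threshold (adjusted p = 0.0729), with 0.0424 when arrays were weighted and 0.0435 without wild-type control 2. A second probe set of Foxf1 differed by 0.83 in the mutant and 0.23 in the wild-type.

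Foxc1 had log2 levels of 10.95, 10.78 and 10.97 on the mutant knockout arrays, against 10.996, 10.999 and 11.04 on the mutant control arrays, and of 10.64, 10.68 and 10.70 on the wild-type knockout arrays, against 11.05, 10.98 and 10.94 on the wild-type control arrays. The 3 wild-type knockout arrays lay below the 9 others. Foxc1, which acts in the embryonic mesenchyme of the aortic arch and outflow tract, fell by 0.32 ± 0.06 in the wild-type (adjusted p = 0.00183), and its difference in the mutant was -0.11 ± 0.06 (adjusted p = 0.181). Among knockouts it was higher in the Fbn1 mutant by 0.23 ± 0.06 (adjusted p = 0.0335), a call lost without any one of the wild-type knockouts or of mutant knockouts 1 and 3 (adjusted p = 0.0740 to 0.131). Foxc2, its paralogue, was not called, with a mean difference of 0.07 ± 0.04 (adjusted p = 0.223).

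Of the 10 tested T-box factors, 2 were called in the mutant, 2 in the wild-type and 3 as the mean, shares of 20%, 20% and 30% that lay near the 13.3%, 18.6% and 28.7% of all genes. Tbx15 and Tbx18 fell and Tbx20 rose. Tbx15 had log2 levels of 8.72, 8.59 and 8.90 on the mutant knockout arrays, against 9.25, 9.27 and 8.997 on the mutant control arrays, and of 9.04, 8.996 and 9.07 on the wild-type knockout arrays, against 9.36, 9.29 and 9.31 on the wild-type control arrays. Knockouts lay below controls in both genotypes, and the mutant knockouts were lowest. Tbx15, a factor of the skeleton and of fat cell precursors, fell by 0.44 ± 0.08 in the mutant (adjusted p = 0.00569) and by 0.28 ± 0.08 in the wild-type (adjusted p = 0.03), the second call being lost without any one of the 6 wild-type arrays (adjusted p = 0.0611 to 0.0830). Between mutant and wild-type knockouts its difference was -0.30 ± 0.08 (adjusted p = 0.0522).

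Tbx18 had log2 levels of 11.10, 11.11 and 11.16 on the mutant knockout arrays, against 11.34, 11.32 and 11.49 on the mutant control arrays, and of 11.50, 11.48 and 11.35 on the wild-type knockout arrays, against 11.53, 11.58 and 11.57 on the wild-type control arrays. The mutant knockouts were lowest, below the mutant controls and below the wild-type knockouts without overlap. Tbx18, a marker of the epicardium and of the cells that wrap small vessels, fell by 0.26 ± 0.06 in the mutant (adjusted p = 0.013), and its difference in the wild-type was -0.12 ± 0.06 (adjusted p = 0.183). Among knockouts it was lower in the Fbn1 mutant, with a difference of -0.32 ± 0.06 (adjusted p = 0.00667). The difference between the knockout effects of the genotypes was not called for Tbx18 or Tbx15 (adjusted p = 0.399 and 0.526).

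Tbx20 had log2 levels of 12.26, 11.94 and 12.25 on the mutant knockout arrays, against 11.98, 11.94 and 11.999 on the mutant control arrays, and of 12.32, 12.24 and 12.12 on the wild-type knockout arrays, against 11.92, 12.01 and 11.35 on the wild-type control arrays. Wild-type control 3, at 11.35, lay apart below the 11 others. Tbx20, a factor of the heart muscle and valves, rose by 0.47 ± 0.14 in the wild-type (adjusted p = 0.0361), and its difference in the mutant was 0.18 ± 0.14 (adjusted p = 0.405). The call was lost without wild-type control 3, where the difference was 0.26 and the adjusted p 0.119, and without any one of the wild-type knockouts (adjusted p at least 0.0561). Tbx2, not called, differed most between mutant and wild-type knockouts, by 0.33 ± 0.10 (adjusted p = 0.0749), and Tbx21 between mutant and wild-type controls, by -0.21 ± 0.06 (adjusted p = 0.0515).

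Of the 10 Hand, Nkx2 and Isl1 genes, of which only some act in the heart fields or in endoderm, 3 rose as the mean of both genotypes and none fell, a share of 30% that lay near the 28.7% of all genes. Hand2 had log2 levels of 10.60, 10.30 and 10.73 on the mutant knockout arrays, against 9.90, 10.003 and 10.29 on the mutant control arrays, and of 10.52, 10.46 and 10.37 on the wild-type knockout arrays, against 10.17, 10.30 and 10.15 on the wild-type control arrays. Knockouts were above controls in each genotype, with mutant control 3 the nearest to the mutant knockouts. Hand2, a basic helix-loop-helix factor of the outflow tract and neural crest, rose by 0.48 ± 0.11 in the mutant, or 1.39-fold (adjusted p = 0.0169), and its difference in the wild-type was 0.24 ± 0.11 (adjusted p = 0.16). The call in the mutant was lost without any one of mutant controls 1 and 2 and mutant knockouts 1 and 3 (adjusted p = 0.0515 to 0.0644), while the mean of both genotypes was 0.36 ± 0.08 (adjusted p = 0.00517).

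Nkx2-3 had log2 levels of 7.59, 7.65 and 7.70 on the mutant knockout arrays, against 7.45, 7.39 and 7.39 on the mutant control arrays, and of 7.56, 7.61 and 7.72 on the wild-type knockout arrays, against 7.56, 7.51 and 7.54 on the wild-type control arrays. Knockouts lay above controls in both genotypes, by a wide gap in the mutant and a narrow one in the wild-type. Nkx2-3, a factor of gut and spleen vessels, rose by 0.24 ± 0.05 in the mutant (adjusted p = 0.0128; 0.0512 without mutant control 2) and by 0.17 ± 0.04 as the mean (adjusted p = 0.00567). Nkx2-1 had log2 levels of 8.02, 8.12 and 8.18 on the mutant knockout arrays, against 7.999, 7.90 and 7.93 on the mutant control arrays, and of 8.09, 8.07 and 8.04 on the wild-type knockout arrays, against 7.81, 7.85 and 8.03 on the wild-type control arrays. Here too the knockouts lay above the controls in both genotypes. Nkx2-1, which specifies lung and thyroid, rose by 0.17 ± 0.05 as the mean (adjusted p = 0.0153) and was called in neither genotype alone. Nkx2-5, the early marker of heart muscle, had a mean difference of 0.09 ± 0.03 that missed the threshold (adjusted p = 0.0515), as did Nkx2-4 with 0.09 ± 0.04 (adjusted p = 0.0737).

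GATA factors are zinc finger proteins, of which Gata4, Gata5 and Gata6 act in heart and vessel. Gata4 had log2 levels of 10.13, 9.98 and 10.03 on the mutant knockout arrays, against 9.56, 9.95 and 9.91 on the mutant control arrays, and of 10.20, 10.28 and 10.23 on the wild-type knockout arrays, against 9.77, 10.16 and 9.70 on the wild-type control arrays. Knockouts were above controls in each genotype, narrowly so for mutant control 2 and wild-type control 2. Gata4 rose by 0.30 ± 0.08 as the mean of both genotypes (adjusted p = 0.0177), with 0.24 ± 0.12 in the mutant (adjusted p = 0.178) and 0.36 ± 0.12 in the wild-type (adjusted p = 0.0508), neither past the threshold.

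Gata6 had log2 levels of 12.74, 12.66 and 12.75 on the mutant knockout arrays, against 12.57, 12.50 and 12.62 on the mutant control arrays, and of 12.85, 12.95 and 12.83 on the wild-type knockout arrays, against 12.79, 12.71 and 12.80 on the wild-type control arrays. Each knockout array was above each control array of its genotype, by narrow gaps, and the mutant controls were the lowest group. Gata6, the GATA factor best known in vascular smooth muscle, rose by 0.13 ± 0.04 as the mean (adjusted p = 0.0209), a call lost without wild-type control 2 or mutant control 2 (adjusted p = 0.0529 to 0.0561). It was lower in Fbn1 mutant than in wild-type controls, with a difference of -0.20 ± 0.05 (adjusted p = 0.0456), a call lost without any one of 9 of the 12 arrays (adjusted p = 0.0506 to 0.180). Gata5, not called, differed most in the mutant, by 0.36 ± 0.13 (adjusted p = 0.0806), and Gata2 as the mean, by 0.16 ± 0.07 (adjusted p = 0.085).

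The factors encoded by Six2 to Six6 are homeobox proteins of muscle, kidney, eye and forebrain precursors. Six4 had log2 levels of 8.93, 8.63 and 9.13 on the mutant knockout arrays, against 9.26, 9.20 and 9.37 on the mutant control arrays, and of 9.08, 9.11 and 8.76 on the wild-type knockout arrays, against 9.59, 9.70 and 9.34 on the wild-type control arrays. Each knockout array was below each control array of its genotype. Six4, which acts in muscle precursors, fell by 0.56 ± 0.13 in the wild-type, and so was 1.48-fold lower in knockouts (adjusted p = 0.00924), with a difference of -0.38 ± 0.13 in the mutant (adjusted p = 0.0656). As the mean of both it fell by 0.47 ± 0.09 (adjusted p = 0.00222). Six5, not called, differed most in the wild-type, by -0.32 ± 0.11 (adjusted p = 0.0642), and Six6 between mutant and wild-type controls, by -0.15 ± 0.08 (adjusted p = 0.265).

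Six2 had log2 levels of 8.28, 8.36 and 8.38 on the mutant knockout arrays, against 8.20, 8.24 and 8.05 on the mutant control arrays, and of 8.30, 8.41 and 8.44 on the wild-type knockout arrays, against 8.22, 8.29 and 8.33 on the wild-type control arrays. Knockouts and controls overlapped in the wild-type and not in the mutant. Six2, a factor of nephron precursors, rose by 0.14 ± 0.04 as the mean (adjusted p = 0.0269; 0.0512 to 0.0642 without any one of 6 arrays). Six3, a factor of eye and forebrain, averaged 7.76 ± 0.05 in mutant knockouts and 7.58 ± 0.08 in mutant controls (SD, n = 3 each), a difference of 0.18 ± 0.05 (adjusted p = 0.0419; 0.0517 to 0.149 without any one of 9 arrays). Pitx1 had log2 levels of 8.06, 8.06 and 8.21 on the mutant knockout arrays, against 8.02, 7.89 and 7.90 on the mutant control arrays, and of 8.06, 8.09 and 8.07 on the wild-type knockout arrays, against 7.97, 7.95 and 8.04 on the wild-type control arrays. Knockouts lay above controls in both genotypes by narrow gaps. Pitx1, a hindlimb factor, rose by 0.13 ± 0.04 as the mean (adjusted p = 0.0237; 0.0502 to 0.0605 without any one of 3 arrays), and Pitx3, not called, differed most between mutant and wild-type controls, by -0.25 ± 0.08 (adjusted p = 0.0788).

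Differences of the Hox genes were small. Of the 24 tested, 7 in the Hoxa cluster, 8 in Hoxb, 3 in Hoxc and 6 in Hoxd, 1 was called in the mutant (Hoxd10, higher), 1 in the wild-type (Hoxa3, lower) and 3 as the mean of both (Hoxa7, Hoxd10 and Hoxd11, higher), and no Hoxb or Hoxc gene was called in any of the 6 comparisons. These are shares of 4.17%, 4.17% and 12.5%, where 13.3%, 18.6% and 28.7% of all genes were called. Of the 24 genes 15 had a mean log2 level under 8, among them Hoxa7, Hoxd10 and Hoxd11. In that band 9.74% of all genes were called higher and 0.503% lower in the mutant, and 7.23% higher and 1.47% lower in the wild-type. As the mean of both genotypes 17.4% of all genes in the band were called higher and 2.13% lower. Differences with the knockout ran from -0.06 (Hoxb2) to 0.27 (Hoxd10) in the mutant and from -0.32 (Hoxa3) to 0.24 (Hoxa13) in the wild-type, and in each 23 of the 24 were within 0.25 of 0. As the mean of both genotypes they ran from -0.12 to 0.18, and the 95% intervals of all 24 spanned -0.26 to 0.31. Larger changes of that mean were outside every interval, but this does not hold within a genotype. There the intervals spanned -0.24 to 0.40 in the mutant and -0.51 to 0.44 in the wild-type. The median difference was 0.11 in the mutant, where 21 of the 24 were above 0, and 0.01 in the wild-type, where 15 were. Between Fbn1 genotypes the differences ran from -0.05 to 0.24 among knockouts and from -0.20 to 0.11 among controls, with none called.

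Hoxa3 had log2 levels of 9.74, 9.54 and 9.61 on the mutant knockout arrays, against 9.47, 9.56 and 9.62 on the mutant control arrays, and of 9.35, 9.31 and 9.51 on the wild-type knockout arrays, against 9.51, 9.71 and 9.90 on the wild-type control arrays. The wild-type knockouts were below the wild-type controls narrowly, with wild-type knockout 3 and wild-type control 1 both at 9.51. Hoxa3, which patterns the third pharyngeal arch from which the carotid arteries form, fell by 0.32 ± 0.09 in the wild-type (adjusted p = 0.0282; 0.0742 to 0.101 without any one of wild-type controls 2 and 3 and wild-type knockouts 1 and 2), while its difference in the mutant was 0.08 ± 0.09 (adjusted p = 0.577). Hoxd10 had log2 levels of 7.79, 7.94 and 7.95 on the mutant knockout arrays, against 7.62, 7.63 and 7.61 on the mutant control arrays, and of 7.62, 7.79 and 7.72 on the wild-type knockout arrays, against 7.65, 7.70 and 7.76 on the wild-type control arrays. The mutant knockouts lay above all mutant controls, while the wild-type groups overlapped. Hoxd10, a gene of the posterior Hoxd cluster, rose by 0.27 ± 0.06 in the mutant (adjusted p = 0.0123), with 0.01 ± 0.06 in the wild-type (adjusted p = 0.957) and a mean of 0.14 ± 0.04 (adjusted p = 0.0264; 0.0505 to 0.0640 without any one of 6 arrays).

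Hoxd11 had log2 levels of 7.96, 8.06 and 8.11 on the mutant knockout arrays, against 7.92, 7.73 and 7.94 on the mutant control arrays, and of 8.04, 8.12 and 8.05 on the wild-type knockout arrays, against 7.87, 7.92 and 7.91 on the wild-type control arrays. Knockouts lay above controls in both genotypes. Hoxd11, the neighbour of Hoxd10 and a gene of limb and trunk patterning, rose by 0.17 ± 0.04 as the mean (adjusted p = 0.0108). Hoxa7 averaged 7.86 ± 0.08 in mutant knockouts and 7.76 ± 0.06 in mutant controls, and 7.90 ± 0.14 in wild-type knockouts and 7.73 ± 0.02 in wild-type controls (SD, n = 3 each), with a mean difference of 0.14 ± 0.05 at the edge of the threshold (adjusted p = 0.0495; 0.0599 to 0.104 without any one of 9 arrays). Of the genes not called, Hoxa13 had a mean difference of 0.18 ± 0.06 (adjusted p = 0.0547), Hoxb1 differed by 0.14 ± 0.05 in the mutant (adjusted p = 0.0954), and Hoxc13 and Hoxd4 had mean differences of 0.09 ± 0.04 and 0.15 ± 0.07 (adjusted p = 0.0911 and 0.117). Between mutant and wild-type controls, Hoxb13 differed by -0.20 ± 0.07, Hoxc12 by -0.18 ± 0.07 and the antisense transcript Hoxd3os1 by -0.16 ± 0.07 (adjusted p = 0.112, 0.133 and 0.207).

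**Figure D3:**
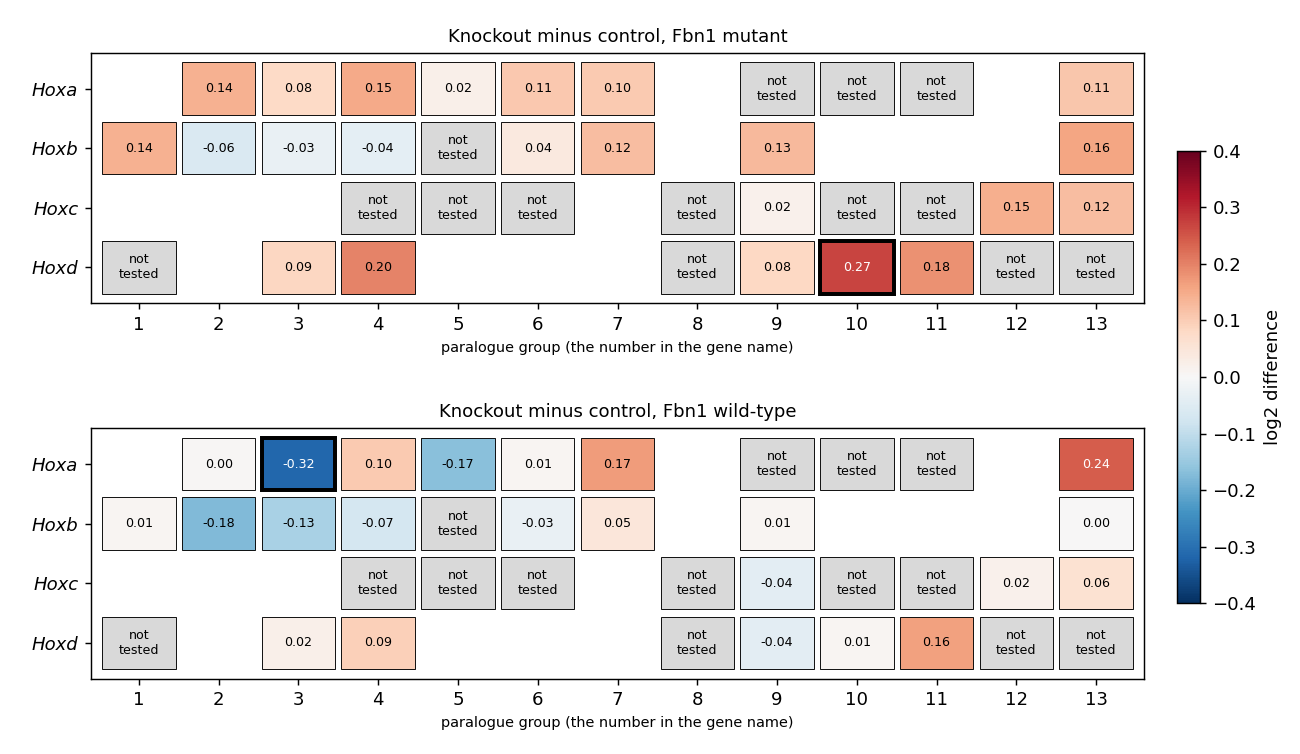
Log2 difference between knockout and control of each Hox gene, by cluster (rows) and paralogue group (columns), in the Fbn1 mutant (above) and the wild-type (below), with a thick frame for genes past the threshold and grey for genes not tested. Hoxd10 at 0.27 is framed in the mutant and Hoxa3 at -0.32 in the wild-type.

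Many of the small increases in the mutant were in dim genes. Of the 9 patterning genes called higher in the mutant, 5 (Dlx2, Hoxd10, Msx2, Nkx2-3 and Six3) had a mean log2 level under 8. They are 5 of the 26 patterning genes tested in that band, of which none was called lower. Of all genes in the band 9.74% were called higher and 0.503% lower. As the mean of both genotypes 5 of the 26 were called higher (Dlx2, Hoxa7, Hoxd10, Hoxd11 and Nkx2-3) and 0 lower. Of all genes in the band 17.4% were then called higher and 2.13% lower. Whether signals this low lie above the background of the array was not tested. In that band the median difference in the mutant was 0.13 for the 26 patterning genes and 0.11 for all 2587 genes tested. In the wild-type it was 0.02 for both. The same medians for genes of level 11 and over were 0.13 for 6 patterning genes and -0.01 for all genes in the mutant, and 0.10 and -0.02 in the wild-type. Mutant knockout 3 had the highest median intensity of the arrays. Without it 8 patterning genes were called in the mutant, in place of 11, and 1717 of all genes, in place of 2023. Without mutant control 2 the counts were 6 patterning genes and 903 of all genes.

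**Figure D4:**
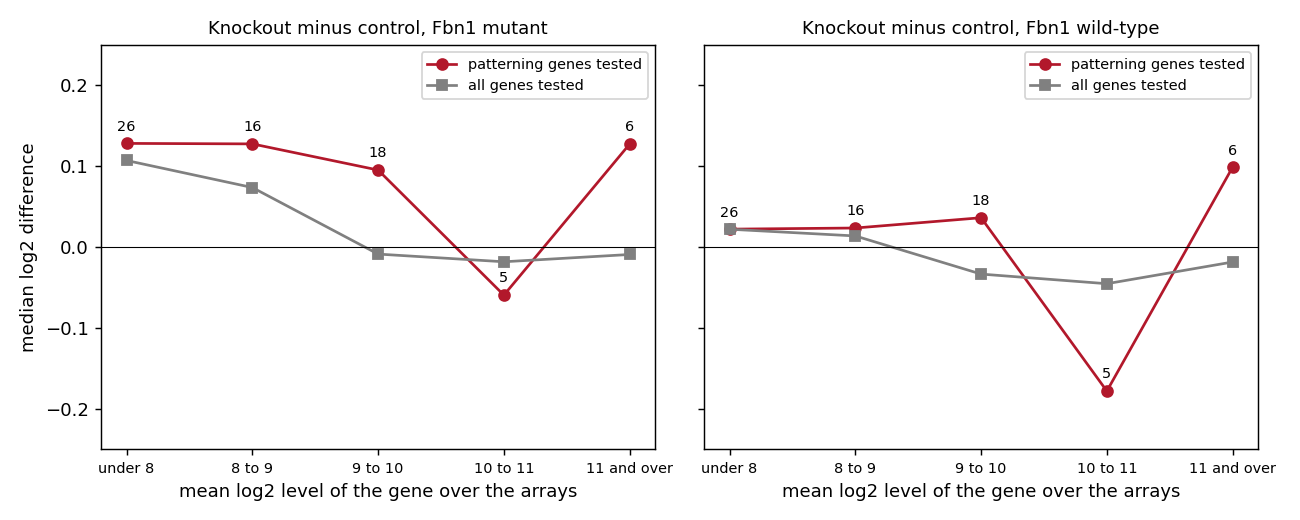
Median log2 difference between knockout and control (y axis) by the mean log2 level of the gene (x axis), for the tested patterning genes (red, with their number) and for all genes tested (grey), in the Fbn1 mutant (left) and the wild-type (right). In the band under 8 both medians are above 0 in the mutant, at 0.13 and 0.11.

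Between Fbn1 genotypes few patterning genes differed. Among knockouts 3 of 71 were called, Foxc1 higher and Meox1 and Tbx18 lower in the mutant, where 5.88% of all genes were called, 2.76% higher and 3.11% lower. Among controls 3 were called, Meox2 higher and Meox1 and Gata6 lower in the mutant, where 6.43% of all genes were called, 3.14% higher and 3.29% lower. The median difference was 0.01 among knockouts, as for all genes, and -0.08 among controls, where that of all genes was -0.02. Mutant arrays lay wholly above or below wild-type arrays for 15 of the 71 genes among knockouts and for 22 of the 71 among controls. Of all 15158 genes 3959 (26.1%) and 4247 (28.0%) did so. These comparisons share arrays with the knockout comparisons above: the mutant controls, lower in 56 of the 71 genes than the wild-type controls, are also the arrays against which the mutant knockouts were set, which were higher in 61 of the 71.

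Lists of partners and regulators of patterning factors, chosen with earlier results known, are given against the 13.3% of all genes called in the mutant and the 18.6% called in the wild-type. The first list held Pbxip1, which is no TALE homeobox factor, and the TALE homeobox genes of the Pbx, Meis, Pknox and Tgif families. Only some of these encode partners of Hox proteins. Of its 11 genes tested 1 rose in the mutant, and 1 rose and 3 fell in the wild-type, shares of 9.09% and 36.4%. Pknox2 rose by 0.28 ± 0.06 and 0.18 ± 0.06, while in the wild-type Pbxip1, which binds PBX proteins, fell by 0.30 ± 0.07, Meis1 by 0.22 ± 0.05 and Pknox1 by 0.20 ± 0.05. The list's median was 0.05 in the mutant and 0.04 in the wild-type. Of 20 Polycomb and Trithorax genes, which keep Hox genes off or on, none was called in the mutant and 3 (15%) fell in the wild-type: the histone demethylase Kdm6b by 0.32 ± 0.05, the Polycomb reader Cbx7 by 0.31 ± 0.06 and the histone methyltransferase Kmt2a by 0.30 ± 0.10. Its median was -0.01 in the mutant and -0.07 in the wild-type. Of 18 genes of retinoic acid, a signal that switches Hox genes on in the embryo, 2 rose in the mutant (11.1%), the binding protein Crabp1 by 0.23 ± 0.06 and the dehydrogenase Rdh10 by 0.20 ± 0.06. In the wild-type the synthesizing enzyme Aldh1a3 rose by 0.44 ± 0.09, while the receptors Rarb and Rxra fell by 0.42 ± 0.08 and 0.24 ± 0.06, 3 of the 18 or 16.7%, and the list's medians were 0.08 and 0.0016.

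Of 40 other vascular and mesenchymal regulators tested, 8 rose and 2 fell in the mutant, and 10 rose and 8 fell in the wild-type, shares of 25% and 45%, with medians of 0.08 and 0.04. Heyl, a Notch target of smooth muscle, fell by 0.62 ± 0.08 in the mutant and 0.85 ± 0.08 in the wild-type, and Tcf21, a factor of fibroblast precursors, rose by 0.85 ± 0.15 and 0.97 ± 0.15. Sox9, the cartilage factor, rose by 0.38 ± 0.08 and 0.46 ± 0.08. In the wild-type Runx1 and Foxm1, a factor of blood cells and one of dividing cells, rose by 0.73 ± 0.07 and 0.97 ± 0.10, and Mef2d, a factor of muscle, fell by 0.54 ± 0.05. Of 31 other homeobox and paired-box genes, 6 rose and none fell in the mutant and none was called in the wild-type, shares of 19.4% and 0%, where 7.67% of all genes rose and 5.68% fell in the mutant. The list's medians were 0.11 and 0.03, and 13 of the 31 had a mean log2 level under 8, a band in which the median of all genes was 0.11 in the mutant. Of the 31, in the mutant Pax7 rose by 0.24 ± 0.06, Lhx2 by 0.22 ± 0.06, Tlx1 by 0.30 ± 0.08 and Nkx6-1 by 0.27 ± 0.07.

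Markers of other cells moved with the knockout, and in RNA of whole tissue fewer cells of a type and less RNA per cell cannot be told apart. Heart muscle markers, of which 20 of 22 were above the limit and Myl2 and Smpx were not, averaged 9.28 to 9.53 on mutant knockout arrays and 9.02 to 9.23 on mutant control arrays, and 9.24 to 9.32 on wild-type knockout arrays and 9.05 to 9.07 on wild-type control arrays. Of the 20, 9 rose and 1 fell as the mean of both genotypes, a share of 50% where 28.7% of all genes were called, among them Tnnt2 by 0.81 ± 0.11 and Myl7 by 0.92 ± 0.19. These averages separate all knockout arrays from the control arrays of their genotype, so the knockout and this marker mean could hardly be told apart. With the marker mean as a covariate, Meox1 and Prrx2 held as the mean of both genotypes out of 20 patterning genes, while calls over all genes fell to 319, against 4351 without it. In the mutant none of the 11 calls held with it, and 76 of all genes were called, against 2023 without it. The difference of Prrx2 in the mutant was then 0.89 (adjusted p = 0.0649) and that of Foxf1 0.89 (adjusted p = 0.119), against 0.86 and 0.97 without it, while that of Meox1 was 0.18, against 0.31.

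Mesothelial markers, 10 of 10 above the limit, averaged 9.40 to 10.04 on mutant knockout arrays and 9.18 to 9.57 on mutant control arrays, and 9.49 to 9.996 on wild-type knockout arrays and 9.17 to 9.74 on wild-type control arrays, and none of the 10 was called as the mean, where 28.7% of all genes were. Fibroblast markers, 13 of 13 above the limit, averaged 12.53 to 12.60 and 12.43 to 12.59 on mutant knockout and control arrays, and 12.67 to 12.73 and 12.38 to 12.50 on wild-type knockout and control arrays. Of these 13, 3 rose and 2 fell in the mutant, and 6 rose and 1 fell in the wild-type. These are shares of 38.5% and 53.8%, where 13.3% and 18.6% of all genes were called. Macrophage markers, 15 of 16 above the limit, averaged 9.91 to 9.94 and 9.41 to 9.70 on mutant knockout and control arrays, and 10.21 to 10.39 and 9.25 to 9.46 on wild-type knockout and control arrays, and 8 rose in the mutant and all 15 in the wild-type. The shares of macrophage markers called were thus 53.3% and 100%. Cell division genes averaged 8.70 to 9.18 and 8.56 to 8.83 in the mutant, and 8.998 to 9.16 and 8.04 to 8.12 in the wild-type, for knockout and control arrays in that order. Of the 14 tested, 3 rose in the mutant and all 14 in the wild-type, shares of 21.4% and 100%.

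Endothelial markers, 17 of 17 above the limit, averaged 10.35 to 10.53 on mutant knockout arrays and 10.03 to 10.29 on mutant control arrays, and 10.47 to 10.68 on wild-type knockout arrays and 10.13 to 10.27 on wild-type control arrays. Knockout and control arrays did not overlap in either genotype, and 12 of the 17 rose and 1 fell as the mean. Nerve and glia markers, 8 of 10 above the limit, averaged 8.27 to 8.34 and 8.14 to 8.19 on mutant knockout and control arrays, and 8.32 to 8.42 and 8.15 to 8.22 on wild-type knockout and control arrays, also without overlap, and 4 of the 8 rose as the mean. Skeletal muscle markers, 12 of 17 above the limit, averaged 7.98 to 8.07 and 7.87 to 7.90 on mutant knockout and control arrays, and 7.96 to 8.03 and 7.92 to 7.97 on wild-type knockout and control arrays, with overlap in the wild-type, and 7 of the 12 rose as the mean. The shares called as the mean were 76.5% (endothelial), 50% (nerve and glia) and 58.3% (skeletal muscle), against 28.7% of all genes. Of the 12 skeletal muscle markers 7 rose in the mutant and 1 in the wild-type. These are shares of 58.3% and 8.33%, where 13.3% and 18.6% of all genes were called.

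All 29 immediate early genes, which cells switch on quickly after a stimulus, were above the limit. They averaged 10.31 to 10.97 on mutant knockout arrays and 10.06 to 10.28 on mutant control arrays, and 10.22 to 10.68 on wild-type knockout arrays and 9.96 to 10.33 on wild-type control arrays. The groups overlapped in the wild-type and not in the mutant. As the mean 12 of the 29 rose and none fell, a share of 41.4% where 28.7% of all genes were called. In the mutant the knockout and this mean could thus hardly be told apart. With their mean as a covariate the difference of Prrx2 in the mutant was 1.01 and that of Foxf1 0.95 (adjusted p = 0.00243 and 0.0148). Adipocyte markers, 10 of 11 above the limit, averaged 9.34 to 9.9999 and 9.03 to 9.83 on mutant knockout and control arrays, and 9.55 to 9.95 and 9.28 to 9.81 on wild-type knockout and control arrays, with overlap in both genotypes, and 2 of the 10 rose as the mean. This is a share of 20%, where 28.7% of all genes were called. Brown adipocyte markers, 7 of 9 above the limit, averaged 8.77 to 8.97 on wild-type knockout arrays and 8.63 to 8.65 on wild-type control arrays. Knockout and control arrays overlapped in the mutant. Of these 7, 3 rose and 1 fell as the mean. The shares called were 42.9% in the mutant, 42.9% in the wild-type and 57.1% as the mean, against 13.3%, 18.6% and 28.7% of all genes. The part of smooth muscle, mesothelial, fibroblast, macrophage, dividing, endothelial, nerve and skeletal muscle cells in the patterning genes' differences was not tested. For heart muscle and fat cells the covariates were no test of it either.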

How the data were processed

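RNA of the ascending aorta was hybridised to 12 Affymetrix whole-transcript arrays. The authors deposited intensity values normalised by RMA in Partek 6.4, per the submitters' processing notes. These intensities, for 35556 probe sets, were on a linear scale, and log2 was taken here. Of the probe sets 23410 were annotated, 21789 of them to 1 symbol, and a gene was read by the brightest of these. The 1621 probe sets with several symbols were left out, among them one for Hoxb8 with Hoxb7.

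The group means were fitted to all arrays with limma 3.58.1 in R 4.3.3 (eBayes without trend, 8 residual degrees of freedom and 4.57 from the prior), two-sided, with Benjamini-Hochberg adjustment over 15158 genes and a threshold of 0.05. The procedure was tested on simulated data. No arrays were identical. No clear pairing by the numbers in the titles was seen: deviations of same-numbered arrays correlated between -0.22 and 0.24, above 0.1 in 3 of 18 pairs. Those of differently numbered arrays across groups correlated between -0.17 and 0.21. With 3 arrays a group this check cannot exclude a pairing. The number of arrays limits the precision.

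Members and the 22 lists (383 entries, 318 tested) were chosen with earlier results of these data known. Named are all members called in any of the 6 comparisons, up to 2 uncalled ones of smallest p per family, and some genes of the other lists. Values per array are given for the 20 members of smallest p with the knockout and for Meox2.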

Additional observations from a re-analysis of the deposited data

Results flagged for a closer look

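Meox1 was marked because the knockout effect differed between the Fbn1 genotypes by a test of that difference: 0.31 ± 0.06 in the mutant and 1.50 ± 0.06 in the wild-type, a difference of -1.19 ± 0.09 on the log2 scale (limma's adjusted p = 0.000164).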

How the results depend on the processing

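Of 45 calls of a gene in a comparison, 8 held under all 15 other settings and 12 left-out arrays that could be computed, and none changed direction: Meox1 in 5 comparisons, Prrx2 in the wild-type and as the mean, and Tbx18 between knockouts. With the cardiac marker mean as a covariate 35 were lost, with the immediate early mean 22, with the adipocyte mean 15, without some single array 17, and under the other settings 14. The adipocyte mean averaged the adipocyte and the brown adipocyte lists. The limit at the median left 31 patterning genes to test, in place of 71, so its counts are not of the same genes. Counts in the mutant (11 of 71) became 5 of 31 with that limit. They became 0 with the cardiac mean and 5 with the immediate early mean. They became 7 with cyclic loess (chosen after seeing the data) and 7 with only the mutant groups fitted. Counts in the wild-type (7) became 3 with the cardiac mean. Counts for the mean (20 of 71) became 12 of 31 with the limit at the median. They became 2, 13 and 9 with the cardiac, adipocyte and immediate early means. Between Fbn1 genotypes, counts among knockouts (3) became 9 with array weights, and among controls (3) 6 with quantile normalization, 8 with array weights and 1 with only their groups fitted. The count for the difference of effects (1) became 0 with the limit at the median, where Meox1 was not tested, and 2 with array weights, which added Foxf1. Leaving out each array gave 6 to 10 in the mutant, 4 to 8 in the wild-type, 16 to 21 for the mean, 2 to 4 among knockouts, 1 to 5 among controls and 1 to 2 for the difference of effects. Of these the 6 came without mutant control 2, the 4 without wild-type knockout 1, the 1 among controls without any one of wild-type controls 1 and 2 and mutant control 2, the 5 without mutant control 3 or mutant knockout 3, and the 2 for the difference of effects without wild-type control 2. With the number as a replicate block the counts were 9, 8, 21, 3, 2 and 1 in that order. Calls over all genes moved as well, in the mutant from 2023 to 903 without mutant control 2, 528 with the immediate early mean and 3694 with array weights. The cause of these changes was not tested.

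Of 53 uncalled values recomputed, 26 were called under some setting and 8 changed sign. With the cardiac mean, Hoxa13 as the mean became -0.0041, Foxc1 in the mutant 0.005, and in the wild-type Hoxd10 -0.0616 and Msx2 -0.0324. With the immediate early mean Tbx20 in the mutant became -0.129 and Six3 in the wild-type 0.0074, and with the adipocyte mean Hoxa3 in the mutant became -0.0455 and Six3 in the wild-type 0.0063. Hoxd10 in the wild-type became -0.0042 with median centring, -0.005 with array weights and -0.0014 with cyclic loess, and Prrx2's difference of effects -0.0044 with centring and -0.012 with cyclic loess. Leaving out an array gave -0.0348 to 0.0509 for Hoxd10, -0.002 to 0.0565 for Msx2 and -0.0469 to 7e-04 for Six3 in the wild-type, and -0.0921 to 0.1145 for the difference of Prrx2.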
